A study of Mus musculus with 10 samples.

Results

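The genes described are 9 receptor and marker genes of macrophages at the borders of the brain, namely Mrc1, Cd163, Lyve1, Pf4, Cbr2, Ms4a7, F13a1, Folr2 and Stab1, which were chosen by name out of 31053 genes in the count matrix, and all 9 were found there. They were followed through CD45+ cells (leukocytes) sorted from whole mouse brain and sequenced cell by cell with a 3' droplet assay, which counts unique molecular identifiers (UMIs), the tags of single captured RNA molecules. The study asked whether Nlrp3, the sensor of an inflammasome, shapes brain immune cells with and without amyloid. Its 10 libraries held WT and Nlrp3KO mice at 3, 6 and 9 months and APP/PS1 and Nlrp3KO APP/PS1 mice at 3 and 9 months, with 1 library for each genotype and age from 3 pooled mice. All mice were on a C57BL/6 background, the Nlrp3 deletion was in the whole body, and the APP/PS1 transgenes, which drive amyloid deposition, were carried by the last 2 genotypes. Because mice were pooled, the spread between mice was not measured, and because each age was a batch of its own in the deposited annotation, age and batch cannot be told apart. The comparisons below therefore pair libraries of the same age.

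Border-associated macrophages (BAM) live in the meninges, around vessels and in the choroid plexus, whereas microglia live inside the brain tissue. Both take up debris, but BAM carry scavenger and endocytic receptors that resting microglia largely lack, and such genes are widely used to tell the cells apart. BAM are commonly divided into a group with Lyve1 and a group rich in MHC class II, the molecules that present peptides to T cells. Disease-associated microglia (DAM) arise around amyloid plaques, and the annotation also names homeostatic microglia (HM), microglia in transition towards DAM (TM), interferon-response microglia (IRM), microglia with immediate-early genes (IEG) and proliferating microglia (PM).

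The 9 genes can be grouped by what their products do. Mrc1 (the mannose receptor CD206), Cd163 (the receptor for haptoglobin-bound haemoglobin), Lyve1 (a hyaluronan receptor), Stab1 (the scavenger receptor stabilin-1) and Folr2 (a folate receptor) encode surface receptors. Pf4 (the chemokine CXCL4, also known from platelets) and F13a1 (the A subunit of coagulation factor XIII) encode proteins with a role in clotting, and Cbr2 encodes a carbonyl reductase. Ms4a7 encodes a membrane protein of the MS4A family. All 9 are protein-coding genes of GRCm38. On the plus strand lie Mrc1 (chr2:14229392-14332057), Cd163 (chr6:124304656-124330527) and Pf4 (chr5:90772435-90773383). On the minus strand lie Lyve1 (chr7:110850607-110863239), Folr2 (chr7:101839988-101857194), Stab1 (chr14:31139013-31168641), F13a1 (chr13:36867178-37050244), Cbr2 (chr11:120729489-120732114) and Ms4a7 (chr19:11321039-11336146).

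The sequences before the starts of 4 of these genes are shown because these 4 are the ones detected by at least 20 UMIs in TM, microglia that lie outside the borders. Each run is the 250 bases before the RefSeq start in GRCm38.p6, read 5' to 3' on the strand of the gene, with capitals for GAGGAA or its reverse complement TTCCTC, the core bound by the myeloid factor PU.1, and for TGCTGA or TCAGCA, the core of the sites of MAF proteins. RefSeq entries were matched for 8 of the 9 genes, with 11 start sites, and none was matched for Lyve1 in the set used.
Mrc1, chr2:14229164-14229413, plus strand: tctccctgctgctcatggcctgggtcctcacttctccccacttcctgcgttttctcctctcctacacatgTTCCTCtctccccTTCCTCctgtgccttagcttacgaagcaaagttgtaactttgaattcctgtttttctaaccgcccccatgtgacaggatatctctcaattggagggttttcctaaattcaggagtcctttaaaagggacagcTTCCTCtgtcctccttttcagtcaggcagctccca
Pf4, chr5:90772185-90772434, plus strand: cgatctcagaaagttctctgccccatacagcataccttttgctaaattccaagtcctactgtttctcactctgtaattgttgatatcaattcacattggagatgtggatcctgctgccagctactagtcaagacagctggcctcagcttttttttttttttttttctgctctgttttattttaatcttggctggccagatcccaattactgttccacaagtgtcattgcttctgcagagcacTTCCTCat
Folr2, chr7:101857191-101857440, minus strand: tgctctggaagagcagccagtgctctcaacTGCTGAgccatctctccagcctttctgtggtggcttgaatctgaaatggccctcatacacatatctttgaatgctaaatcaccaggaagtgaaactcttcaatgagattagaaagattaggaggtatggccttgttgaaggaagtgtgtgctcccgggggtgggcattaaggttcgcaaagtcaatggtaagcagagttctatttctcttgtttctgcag
Stab1, chr14:31168642-31168891, minus strand: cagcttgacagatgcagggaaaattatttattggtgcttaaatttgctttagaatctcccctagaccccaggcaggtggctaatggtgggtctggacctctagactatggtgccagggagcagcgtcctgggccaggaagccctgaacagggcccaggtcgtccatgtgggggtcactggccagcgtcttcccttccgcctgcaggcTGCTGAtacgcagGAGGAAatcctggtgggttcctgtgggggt
The Mrc1 stretch held TTCCTC 3 times and the Pf4 stretch held it 1 time. The Folr2 stretch held TGCTGA 1 time, and the Stab1 stretch held both GAGGAA and TGCTGA. Over all start sites of the 8 genes, 5 genes had the first motif and 2 had the second. Such matches are frequent, since 23.3% of 32851 mouse promoter entries of the same length held the first motif on either strand and 16.1% held the second, and the matches are descriptions of letters, not of bound sites.

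Of 45472 cells used, 1109 were annotated as BAM and 40547 as microglia. BAM made up between 1.84% and 3.42% of the cells of a library, or 54 to 194 cells, and their summed counts ranged from 384991 to 1110675 UMIs per library. The annotation split BAM into a cluster named BAM with 725 cells, a cluster named BAM Lyve1 with 382 cells and a proliferating cluster with 2 cells. Nlrp3 itself was at 0 UMIs in BAM and in microglia of all 5 Nlrp3KO libraries and at 11 to 44 UMIs in BAM of the Nlrp3WT libraries. Barcodes that another library also held were found on 493 cells, and 1.06% to 17.3% of the BAM of a library had a doublet score over 0.5. The labels matched marker genes: 4 MHC class II genes summed to 57273 CPM in the BAM cluster and 4453 CPM in the Lyve1 cluster. The BAM cluster also held 5 monocyte markers at 1471 CPM, against 14.0 CPM in the Lyve1 cluster, where Ly6c2 and Plac8 were at 0. Levels are given as CPM, the UMIs of a gene over all UMIs of a cell type scaled to 1000000, and are compared within a gene but not between genes.

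All 9 genes were higher in BAM than in HM in 10 of 10 libraries. The share of all genes that were so was not counted. Of 10198 genes with at least 20 UMIs in BAM, 11% were over 2 times higher in BAM. Mrc1 was at 1189 CPM in BAM and 5.35 CPM in HM, which is 222-fold. The distance was 1692-fold for Pf4, 2176-fold for Cd163, 2389-fold for F13a1 and 3482-fold for Ms4a7. These 4 ratios rest on only 116, 13, 30 and 31 HM UMIs, in that order, so their size is uncertain. For Cd163 the counting interval in HM was 0.0472 to 0.152 CPM. Lyve1 was detected in HM by only 2 UMIs among 31953 cells, so no fold is given for it. Stab1 was the exception in size, with 777 CPM in BAM and 264 CPM in HM, a difference of 2.94-fold. In the BAM cluster alone Stab1 was at 311 CPM and in 61.9% of cells, against 64.9% of HM cells. Its range over the libraries there (211 to 497 CPM) covered that of HM (237 to 280 CPM). The clusters were made from these counts, so these values describe the annotation and were not tested.

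**Figure D1:**
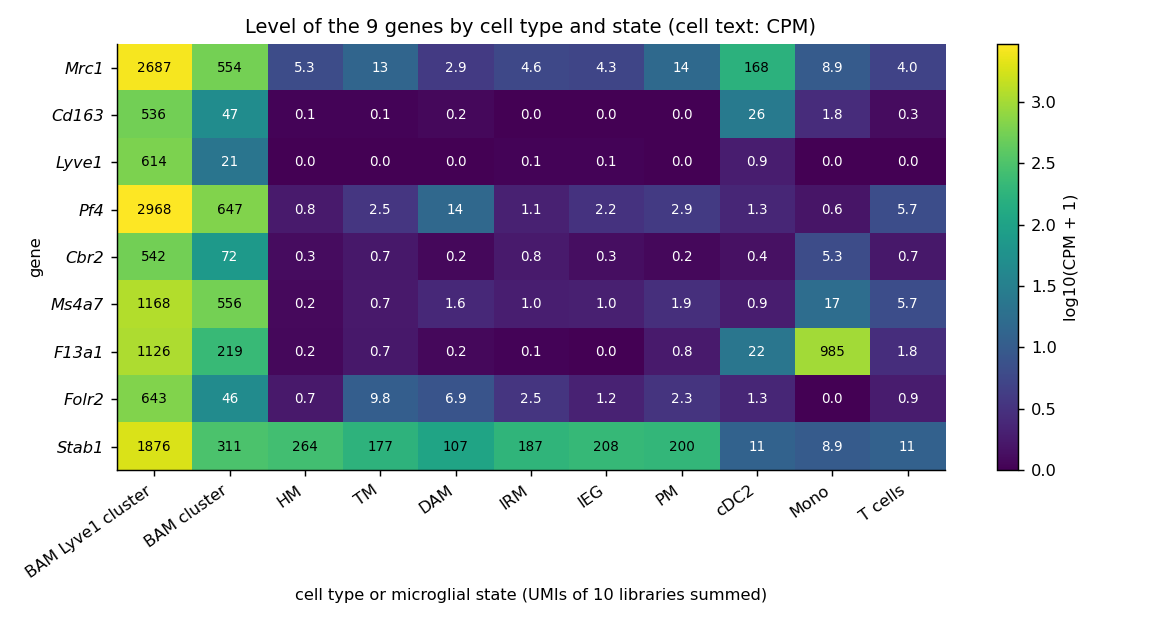
CPM of the 9 genes (rows) in the BAM clusters, the microglial states and 3 further cell types (columns), with colour for log10(CPM + 1) and the CPM written in each field, summed over 10 libraries. Each gene is highest in the BAM Lyve1 cluster, F13a1 is also high in monocytes (985 CPM), and Stab1 is present in all microglial states.

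Within BAM, the Lyve1 cluster held more of every member in 10 of 10 libraries. How many of all genes differed between these clusters in every library was not counted. The ratio between the clusters was 28.9 for Lyve1, 13.9 for Folr2, 11.3 for Cd163 and 7.5 for Cbr2. It was 6.03 for Stab1, 5.13 for F13a1, 4.85 for Mrc1, 4.59 for Pf4 and 2.1 for Ms4a7. The MHC class II gene H2-Aa ran the other way, with 752 CPM in the Lyve1 cluster and 10094 CPM in the BAM cluster, and was lower in the Lyve1 cluster in 10 of 10 libraries. A cell of the Lyve1 cluster held UMIs of 8 of the 9 genes in the median, and 147 of its 382 cells (38.5%) held all 9. A cell of the BAM cluster held 3 in the median, and 13 of 725 cells held all 9. Ms4a7, Mrc1 and Pf4 were thus detected across both clusters, in 68.0%, 75.3% and 58.2% of the cells of the BAM cluster, whereas Cd163 and Lyve1 were detected in 12.3% and 3.59% of them. The median cell held 6154 UMIs in the BAM cluster and 5137 UMIs in the Lyve1 cluster.

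Cells within each cluster were also split by Lyve1, as a description only, since the clusters were made from these counts. After every cell was thinned to 1500 UMIs to remove depth, 11 of 725 cells of the BAM cluster still held a Lyve1 UMI. All 11 held Mrc1 and Pf4, against 46.8% and 39.1% of the cells without Lyve1. H2-Aa, in contrast, was found in 9.09% of the 11 cells and in 94.4% of the others. In the Lyve1 cluster, cells with and without a Lyve1 UMI held Mrc1 in 92.6% and 94.5% and Pf4 in 95.7% and 91.8% of cases, while Folr2 was in 66.0% and 42.3% of them. H2-Aa was in 14.2% and 23.6% of them, a smaller difference than in the BAM cluster, where only 11 cells held Lyve1.

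Outside BAM, the cell type with the next highest level differed between the genes. Mrc1 was next highest in type 2 dendritic cells (cDC2), at 168 CPM (95% counting interval 152 to 186) and in 53.4% of 189 cells. Cd163 was also next in cDC2 at 25.5 CPM (19.3 to 33.1), in 13.8% of cells, and this level was below the 47.3 CPM of the BAM cluster. In T cells, which should lack both genes, 0.688% and 0.125% of 1598 cells held a UMI of them. The median cDC2 held 11289 UMIs and the median T cell 5810. F13a1 in monocytes (Mono) reached 985 CPM (938 to 1034), above the 219 CPM of the BAM cluster and below the 1126 CPM of the Lyve1 cluster, and 89.3% of 149 monocytes held it. Precursor cells followed at 464 CPM, and 0.375% of T cells held F13a1. Ms4a7 was next in monocytes at 16.6 CPM (11.1 to 24.0), and Cbr2 at 5.35 CPM (2.45 to 10.2), which did not differ from the next cell types beyond counting error. Lyve1 was next in neutrophils at 9.89 CPM, from 10 UMIs, and its interval (4.74 to 18.2) overlapped that of the BAM cluster. Pf4 was next in DAM and Folr2 in TM, both microglial states. Stab1 was found at 107 to 264 CPM in HM, TM and DAM and in 4.01% of T cells. The intervals cover counting error only.

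Over the 20 cell types with at least 20 cells, the genes whose pattern was most like the mean log2(CPM + 1) of the 9 were, out of 12226 genes ranked, Ccl8, Timd4, Chp2, Pla2g2d, Cd209f, Cd209g, Ptn, Meg3, Fcna and Adam33, with Pearson's r between 0.95 and 0.915. Ccl8 encodes a chemokine, Timd4 a receptor for phosphatidylserine on dying cells, and Cd209f and Cd209g are C-type lectins. Cd209f was at 629 CPM in the Lyve1 cluster and 14.3 CPM in the BAM cluster, and Ccl8 at 480 CPM and 106 CPM. Of the members themselves, Ms4a7 (r = 0.93) and Cbr2 (r = 0.925) were closest to the mean of the other 8, and F13a1 (r = 0.634) and Stab1 (r = 0.563) were farthest. These coefficients describe cell types of the same libraries and carry no p.

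In microglial states, 2 of the 9 genes, Mrc1 and Folr2, were raised in TM, and none was raised in DAM by the same rule. A gene counted as raised when its CPM was over 2 times that of HM, with at least 20 UMIs in the state and a higher CPM in at least 8 of 10 libraries. This held for 1.79% of 10857 genes in TM and for 2.24% of 9920 genes in DAM. In TM, 4 of the 9 genes had 20 UMIs, and in DAM 3 had. The states were defined from these counts, so the ratios are descriptions and no test was made.

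Mrc1 in TM lay between 5.0 and 19.7 CPM over the libraries, with a median of 12.7 CPM, against 3.05 to 6.57 CPM with a median of 5.04 CPM in HM. It was higher in TM than in HM of the same library in 10 of 10 libraries, and the ratio over all cells was 2.38. Folr2 in TM lay between 4.46 and 14.9 CPM with a median of 10.1 CPM, against 0.361 to 2.02 CPM in HM, and its ratio was 13.7. The Folr2 levels of the states did not overlap, while the lowest Mrc1 level in TM lay inside the HM range. The share of all genes without overlap was not counted, and the states were made from these counts. Of 2538 TM cells, 4.57% held an Mrc1 UMI and 3.55% a Folr2 UMI, against 2.12% and 0.3% of HM and 0.688% and 0.188% of T cells. The T cell share of Mrc1 is not a clean floor, since 81.8% of those cells had a doublet score over 0.5. The median cell of TM, HM and T cells held 4970, 4366 and 5810 UMIs. With every cell thinned to 1500 UMIs Mrc1 was in 1.85% of TM and 0.764% of HM, and Folr2 in 31 of 2538 TM and 24 of 31953 HM. Mrc1 lost its call when states were taken from the annotation of all CD45+ cells, where TM held 9.05 CPM and HM 5.47 CPM. PM also held Mrc1, at 14.2 CPM, and 41.5% of the 41 PM with it had a doublet score over 0.5, against 20.2% of the other PM. Pf4 in TM was at 2.55 CPM, higher than HM in 5 of 10 libraries, and 17 of its 34 UMIs were in 1 cell.

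Most TM cells with these genes held no other of the 9 besides Stab1, but such genes were more frequent in them than in other TM cells. Of 116 TM cells with Mrc1, 87 had 1 UMI of it, and 19 (16.4%) held another of the genes other than Stab1, against 3.96% of TM without Mrc1. Of 90 TM cells with Folr2, 19 did (21.1%), against 4.98% of TM without it. Ms4a7, found in most BAM, was in 2 of the 116 and in 0 of the 90 cells. A doublet score over 0.5 was found in 12.1% of the TM cells with Mrc1 and 10.0% of those without, and the median cell held 5062.5 and 4967.0 UMIs. Apoe, which encodes the lipid carrier apolipoprotein E and was high in BAM as well (44989 CPM), was at 14682 CPM in the TM cells with Mrc1 and 3829 CPM in those without.

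**Figure D2:**
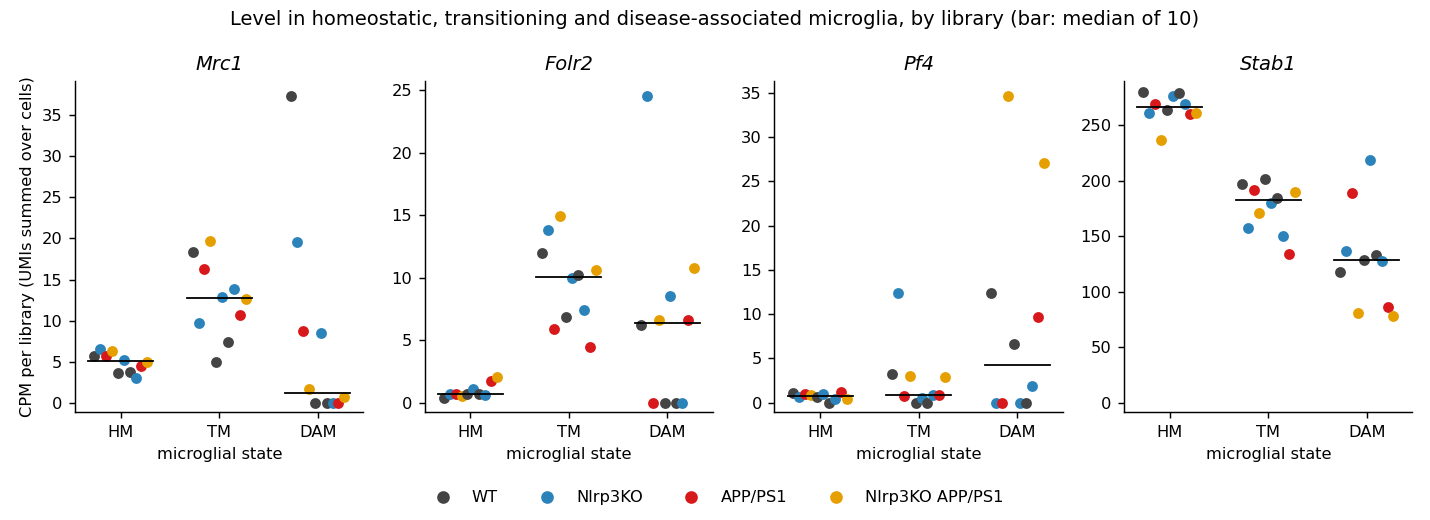
CPM of Mrc1, Folr2, Pf4 and Stab1 (vertical axes, linear, 1 panel a gene) in HM, TM and DAM of each of the 10 libraries (points, coloured by genotype), with the median as a bar. Mrc1 and Folr2 are higher in TM than in HM in every library, Pf4 in DAM is highest in the Nlrp3KO APP/PS1 libraries (34.6 and 27.1 CPM), and Stab1 is lower in DAM than in HM in every library.

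Pf4 in DAM reached 14.1 CPM against 0.791 CPM in HM, 17.9-fold, but was higher in only 6 of 10 libraries. The libraries with UMIs of it were Nlrp3KO APP/PS1 at 3 months (34.6 CPM, 21 UMIs in 83 DAM) and at 9 months (27.1 CPM, 40 UMIs in 202 DAM), APP/PS1 at 9 months (9.64 CPM, 16 UMIs in 253 DAM), WT at 3 months (12.4 CPM, 2 UMIs), WT at 6 months (6.59 CPM, 2 UMIs) and Nlrp3KO at 9 months (1.9 CPM, 1 UMI). The other 4 libraries, among them APP/PS1 at 3 months with 24 DAM, had no Pf4 UMI in DAM. More than 2 UMIs were thus found in 3 of the 4 libraries with the APP/PS1 transgenes and in no other, and the 2 highest levels were in those that also lacked Nlrp3. The number of DAM differed as well, with 31 in WT at 3 months, 55 in WT at 6 months and 102 in Nlrp3KO at 9 months. By CPM, WT at 3 months lay above APP/PS1 at 9 months, so the division by transgene held for UMIs and not for levels. In all, 40 of 901 DAM (4.44%) held Pf4, against 0.351% of HM and 0.626% of T cells, and 25 of the 40 held 1 UMI. The counting interval of the DAM level (11.2 to 17.5 CPM) overlapped that of plasmacytoid dendritic cells (7.53 CPM).

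Those 40 cells differed from other DAM in depth and doublet score as well. Their median was 9312.5 UMIs against 5601.0 for the other DAM, and 32.5% against 13.6% had a doublet score over 0.5. Only 3 of the 40 held Ms4a7 and none held the platelet gene Ppbp. Besides Pf4, Ppbp was the only platelet gene looked up in these cells, so other platelet genes are not covered. Another of the genes other than Stab1 was found in 25.0% of them, against 4.53% of DAM without Pf4. Colec12, a scavenger collectin of the wider BAM list, was in 27.5% of them and 2.56% of the other DAM, and Apoe was at 26153 and 6468 CPM. Over all DAM Colec12 had 66 UMIs and was higher than in HM in 3 libraries and lower in 5. Ccl8, Cd209f and Clec12a of the same list had 0, 0 and 3 UMIs in all DAM, while 13 of its 22 genes had at least 20. Apart from Apoe, the other genes of that list were not compared between these cells. The log2 ratio of Pf4 in DAM to HM was 4.16 over all cells, 3.96 once cells with a doublet score above 0.5 were dropped, and 3.38 with every cell thinned to 1500 UMIs. It was 2.53 from the medians of the libraries' CPM, which count each library equally. Pf4 did not meet the rule in any of these.

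Folr2 in DAM was at 6.89 CPM, 9.62-fold over HM, and was higher in 6 of 10 libraries, with 0 UMIs in the other 4. Its highest values were 24.5 CPM in Nlrp3KO at 3 months (5 UMIs in a single cell of 37 DAM) and 10.8 CPM in Nlrp3KO APP/PS1 at 9 months (16 UMIs). Folr2 met the rule when DAM were taken from the annotation of all CD45+ cells (1416 cells). Mrc1 was at 2.93 CPM in DAM and higher than HM in 4 libraries and lower in 6. Cd163, Cbr2 and F13a1 had 1 UMI each in all DAM, and Ms4a7 had 9. Lyve1 had 0 UMIs in 901 DAM and in 2538 TM, which allows a share of up to 0.333% and 0.118% of cells with a UMI.

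Stab1 was lower in TM and DAM than in HM. It was at 237 to 280 CPM in HM, 134 to 202 CPM in TM and 78.6 to 219 CPM in DAM of the 10 libraries, and neither TM nor DAM overlapped with HM. It was lower than HM of the same library in 10 of 10 libraries for both states, to 0.669 of the HM level in TM and 0.404 in DAM. The share of all genes that were lower in every library, or whose ranges did not overlap, was not counted. The median log2 ratio of all genes to HM was -0.211 in TM and -0.275 in DAM. Stab1 was also below the 264 CPM of HM in IRM (187 CPM), PM (200 CPM) and IEG (208 CPM). By the mirror rule, added after the values were seen, Stab1 was lowered in DAM but not in TM. So were 6.64% of 12500 genes in DAM, and no other member was. Cbr2, with 1 UMI in DAM, met it as well by the median of the libraries' CPM, in the annotation of all CD45+ cells and without Nlrp3KO at 6 months. UMIs of Stab1 were held by 64.9% of HM, 53.3% of TM and 41.6% of DAM, whose median cell held 5726 UMIs, more than the 4366 of HM.

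In the wider list of 22 BAM genes, which were listed as markers of these cells, 20 were over 2 times higher in BAM than in HM, as were 11% of the 10198 genes with at least 20 UMIs in BAM, a minimum that all 22 passed. Among genes with more than 3 UMIs in HM, the largest ratios were those of Ccl8 (2655-fold), Cd209f (2229-fold) and Clec12a (2016-fold). They rest on only 12, 13 and 23 HM UMIs. The smallest were Maf (1.02-fold), Ehd4 (1.89-fold) and Nrp1 (2.33-fold). Of the 22 genes, 13 had 20 UMIs in DAM and 12 in TM. By the rule above 2 were raised in DAM and 2 in TM, as were 2.24% of 9920 and 1.79% of 10857 of all genes. In both states the 2 were Apoe and Lyz2, which encodes lysozyme. Ms4a4a was at 0 UMIs in HM, TM and DAM. In the comparisons of genotypes described next, edgeR called 0 of 22 of these genes with amyloid and 0 of 22 without Nlrp3 in BAM, with 5 and 11 at an unadjusted p under 0.05, as were 390 of 6986 and 423 of 7644 of all genes. DESeq2 called 0, with 3 and 2 at an unadjusted p under 0.05, against 82 of 12659 and 93 of 14043 of all genes. In microglia edgeR called 0 of 15 and 0 of 16, with 8 and 1 at an unadjusted p under 0.05, against 918 of 12282 and 574 of 12383 of all genes. DESeq2 called 1 of 21 with amyloid, against 21 of 13109 of all genes, and 0 of 21 without Nlrp3, with 7 and 2 at an unadjusted p under 0.05, against 483 of 13109 and 231 of 17533 of all genes.

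The next question was whether the 9 genes changed with amyloid or Nlrp3 within BAM. UMIs of BAM were summed per library and compared in 4 pairs with and without the APP/PS1 transgenes, and in 5 pairs with and without Nlrp3, with the quasi-likelihood test of edgeR over all genes. Genes were called where the adjusted p was below 0.05 and the fold change was larger than 1 on the log2 scale in either direction. In sums over cells, a shift in the share of a BAM cluster and a change within cells cannot be told apart.

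With the APP/PS1 transgenes, 0 of the 9 genes were called in BAM, against 0.0859% of 6986 genes tested. By edgeR 2 had an unadjusted p under 0.05, as did 390 of all genes, and by DESeq2, which called 0, 1 did, as did 82 of 12659. Pf4 was at 1144, 1304, 1268 and 905 CPM in the APP/PS1 libraries (APP/PS1 and Nlrp3KO APP/PS1 at 3 months, then at 9 months) and at 1923, 1421, 1329 and 1091 CPM in their partners. It was lower in 4 of 4 pairs, with a log2 fold change of -0.35 ± 0.10 (SE; 95% interval -0.56 to -0.13, adjusted p = 0.383 by edgeR). Cd163 had a log2 fold change of -0.32 (interval -0.61 to -0.03, adjusted p = 0.823 by edgeR). Without the Nlrp3WT pair at 3 months these were -0.21 for Pf4 (adjusted p = 0.747 by edgeR) and -0.16 for Cd163 (adjusted p = 0.943 by edgeR). The other 7 genes had estimates between -0.13 and 0.08. The narrowest of their intervals was that of Stab1, from -0.29 to 0.10, and the widest that of Lyve1, from -0.46 to 0.51.

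The BAM clusters were also fitted apart, after the data had been seen. In the BAM cluster alone all 9 genes had lower estimates with the APP/PS1 transgenes, whereas 3011 of 5928 of all genes had estimates above 0. Cells with Mrc1 held the other 8 genes more often, so the 9 estimates are not independent. Of the 9, 8 had an unadjusted p under 0.05 by edgeR (438 of 5928 of all genes did). Pf4 and Cd163 had an adjusted p under 0.05 by edgeR, as did 0.725% of 5928 genes. With the limit on the fold change 0 were called, against 0.27% of genes. Pf4 fell from 1146 to 567 CPM and from 829 to 555 CPM in the pairs at 3 months with and without Nlrp3, and from 904 to 565 CPM and from 597 to 293 CPM in those at 9 months. Every pair moved the same way, and the log2 fold change was -0.86 ± 0.11 (SE; 95% interval -1.10 to -0.63, adjusted p = 0.000229 by edgeR and 4.4e-07 by DESeq2). Without each pair in turn the estimate lay between -0.95 and -0.80, and its adjusted p by edgeR was at most 0.0177. Cd163 was lower in 4 of 4 pairs as well, with a log2 fold change of -0.99 ± 0.22 (SE; adjusted p = 0.0349 by edgeR), but its adjusted p lay between 0.0963 and 0.256 when a pair was left out, whichever it was, and at 0.065 once cells with a doublet score above 0.5 were dropped. DESeq2, which called 0 of the 9 with 6 at an unadjusted p under 0.05 (122 of 12454 of all genes), gave Cd163 no adjusted p. Without the Nlrp3KO pair at 9 months, Ms4a7 had an adjusted p of 0.0176 by edgeR (log2 fold change -0.65). Cbr2 followed with -0.78 ± 0.19 (SE; adjusted p = 0.0625 by edgeR). In the BAM Lyve1 cluster edgeR called 0 of the 9 genes and 0 had an unadjusted p under 0.05, against 0 and 132 of 3318 of all genes. There Pf4 was at -0.16 (interval -0.37 to 0.06) and Cd163 was at -0.26 (interval -0.56 to 0.03), although both were lower in 4 of 4 pairs there too. Whether the change in Pf4 differed between the clusters was not tested.

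**Figure D3:**
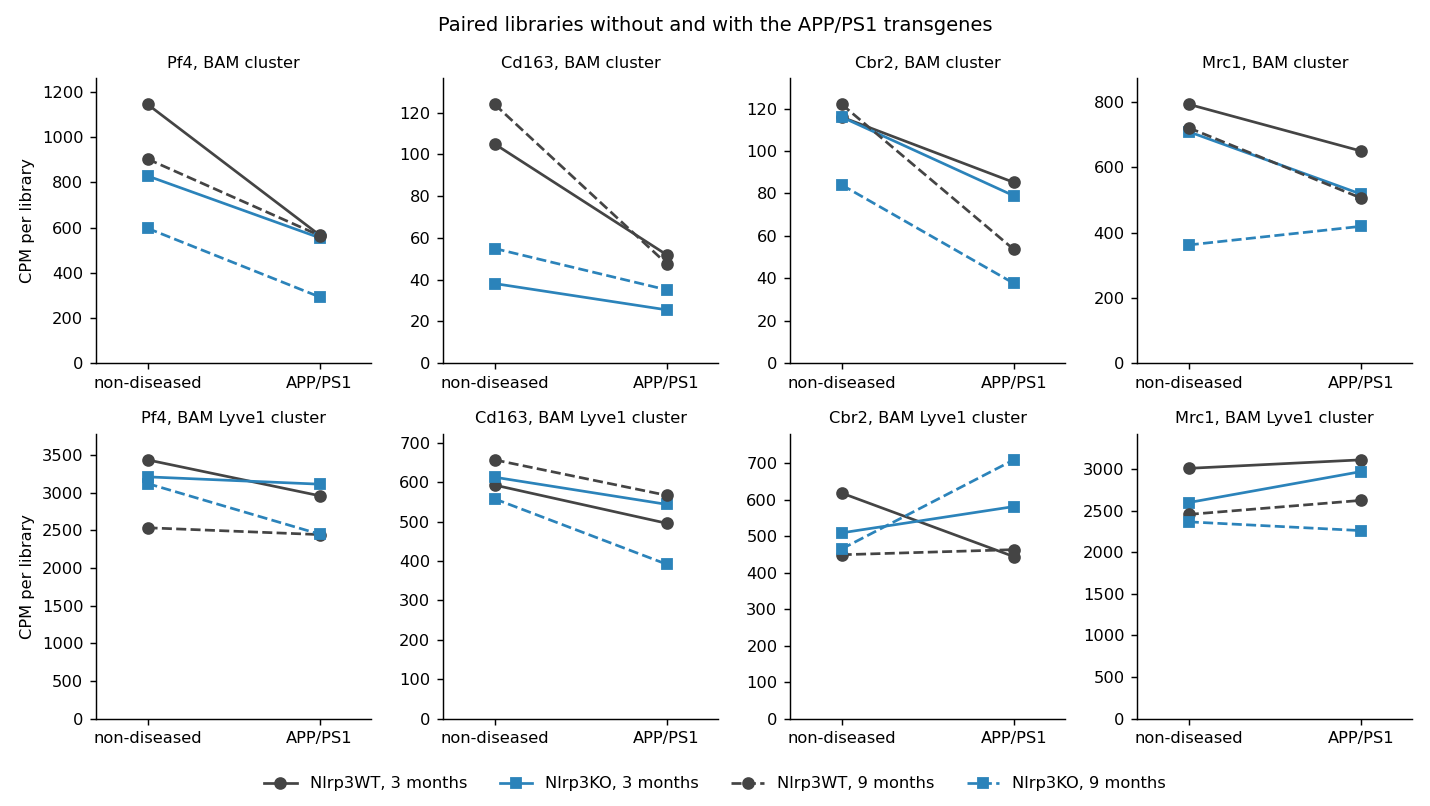
CPM of Pf4, Cd163, Cbr2 and Mrc1 (columns) in the BAM cluster (upper row) and the BAM Lyve1 cluster (lower row), with each line joining the non-diseased and the APP/PS1 library of 1 pair (blue for Nlrp3KO, dashed for 9 months), and axes that start at 0. Pf4 and Cd163 are lower with the transgenes in 4 of 4 pairs of both clusters, Cbr2 in 4 of 4 pairs of the BAM cluster.

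In the BAM cluster, a sum of 5 monocyte markers, mostly Ccr2, differed in the same pairs as Pf4. It was 1810, 2251, 1949 and 1347 CPM in the APP/PS1 libraries and 1064, 1267, 868 and 1262.5 CPM in their partners, in the order above. The sum was higher in 4 of 4 pairs, least so in the Nlrp3KO pair at 9 months, and all 5 markers were detected. The pairs were not compared marker by marker, and the share of all genes higher in 4 of 4 pairs was not counted. The share of BAM in the Lyve1 cluster was 6.33 ± 9.59 percentage points (SD over 4 pairs) higher with the transgenes, in 3 of 4 pairs, and 10.9 higher without the WT and APP/PS1 pair at 3 months and 3.72 without that at 9 months (exact sign-flip permutation test, two-sided p = 0.375, smallest possible 0.125). Whether either of these had a part in the lower Pf4 level was not tested. MHC class II genes summed to 47479 to 61719 CPM in the APP/PS1 libraries and 48435 to 58199 CPM in their partners, and these ranges overlapped.

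Without Nlrp3, 0 of the 9 genes were called in BAM, against 0.0523% of 7644 genes. All 9 estimates were nevertheless below 0, whereas 3722 of 7644 of all genes were above 0. By edgeR 5 of the 9 had an unadjusted p under 0.05, as did 423 of all genes, and by DESeq2, which called 0, 2 did, as did 93 of 14043. Stab1 was at 680, 667, 750, 662 and 711 CPM in the Nlrp3KO libraries and at 968, 851, 725, 905 and 857 CPM in their Nlrp3WT partners, in the order non-diseased and APP/PS1 at 3 months, non-diseased at 6 months, and non-diseased and APP/PS1 at 9 months. It was lower in 4 of 5 pairs, with a log2 fold change of -0.31 ± 0.09 (SE; 95% interval -0.51 to -0.12, adjusted p = 0.689 by edgeR). Mrc1 had -0.27 (interval -0.49 to -0.06), Cd163 had -0.38 (-0.69 to -0.06) and Folr2 had -0.44 (-0.88 to -0.004), each with an adjusted p of 0.828 or more by edgeR. Folr2 was at -0.76 without the APP/PS1 pair at 3 months (adjusted p = 0.111 by edgeR) and at -0.24 without the non-diseased pair at 3 months (adjusted p = 0.969 by edgeR). The Lyve1 cluster made up 4.54 ± 6.90 percentage points (SD over 5 pairs) less of BAM in the Nlrp3KO libraries, in 3 of 5 pairs, with differences of -6.84 without the APP/PS1 pair at 3 months and -3.01 without that at 9 months (exact sign-flip permutation test, two-sided p = 0.25, smallest possible 0.0625). Within the Lyve1 cluster 4 of the 9 estimates were above 0, as were 1962 of 3943 of all genes. There edgeR called 0 of the 9 with 0 at an unadjusted p under 0.05, against 3 and 189 of 3943 of all genes.

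In the BAM cluster alone, without Nlrp3, all 9 estimates were below 0, whereas 3316 of 6700 of all genes were above 0. Of the 9, 6 had an unadjusted p under 0.05 by edgeR, against 347 of 6700 of all genes. DESeq2 called 0 of the 9, with 3 at an unadjusted p under 0.05 against 70 of 13298 of all genes. By edgeR Lyve1 was called, and the call rested on few cells. Its log2 fold change was -2.40 ± 0.41 (SE; adjusted p = 0.0297 by edgeR), against 0.0746% of 6700 genes called by the same rule, with or without the limit on the fold change. In the cluster, Lyve1 UMIs were held by 8, 3, 0, 6 and 4 cells of the Nlrp3WT libraries and by 2, 1, 0, 1 and 1 cells of their Nlrp3KO partners, in the order given for Stab1. DESeq2 gave an adjusted p of 0.683. The call was lost without cells of a doublet score over 0.5, without either APP/PS1 pair and without the pair of WT and Nlrp3KO at 9 months. Without the pair at 6 months Cd163 was called as well (log2 fold change -1.14, adjusted p = 0.0438 by edgeR). In the Lyve1 cluster, where most Lyve1 UMIs were, the log2 fold change was -0.08 (interval -0.49 to 0.33).

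**Figure D4:**
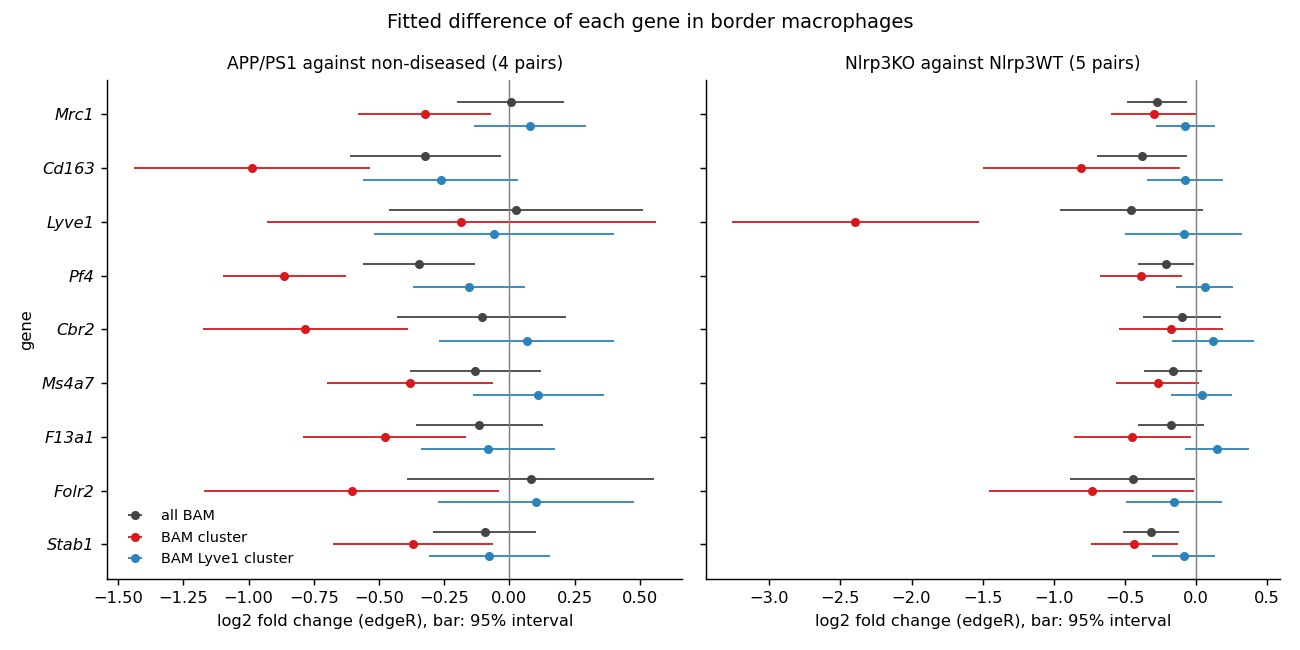
Log2 fold change (horizontal axes) of each gene (rows) in all BAM, the BAM cluster and the BAM Lyve1 cluster, for the APP/PS1 transgenes (left, 4 pairs) and for Nlrp3 deletion (right, 5 pairs), with bars for the 95% interval of the edgeR fit. In the BAM cluster every estimate is below 0 in both comparisons, while 3011 of 5928 and 3316 of 6700 of all genes were above 0. In the Lyve1 cluster the intervals of all 9 genes include 0.

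The change with amyloid did not differ detectably between Nlrp3 genotypes. In BAM 0 of the 9 genes passed an adjusted p of 0.05 for the interaction in edgeR, against 0.0143% of 6986 genes, and 1 gene, Cbr2, had an unadjusted p under 0.05 (278 of all genes did), with a difference of 0.63 in log2 fold change (interval 0.02 to 1.23). The 9 differences were between 0.13 and 0.67, and 3422 of 6986 of all genes also had a difference above 0. Several intervals were wide, with -0.68 to 1.47 for Lyve1.

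In all microglia, where these genes are rare, 4 of the 9 (Mrc1, Pf4, Folr2 and Stab1) passed the filter on low counts of edgeR for the test with amyloid, and 0 were called, against 0.0407% of 12282 genes. By edgeR 2 had an unadjusted p under 0.05, as did 918 of all genes, and by DESeq2, which tested all 9 and called 0, 1 did, as did 483 of 13109. Pf4 was at 0.993, 1.6, 2.81 and 7.27 CPM in the APP/PS1 libraries and at 1.24, 1.25, 0.0882 and 0.619 CPM in their partners, in the order used above. It was higher in 3 of 4 pairs, and the 2 pairs at 9 months were farther apart than those at 3 months. The log2 fold change over all pairs was 1.37 ± 0.65 (SE; 95% interval -0.14 to 2.88, adjusted p = 0.682 by edgeR). Without the Nlrp3KO pair at 9 months it was 0.69, and in HM alone it was 0.41 (interval -0.63 to 1.45). At 9 months DAM were 55 of 2353 microglia in WT and 253 of 2167 in APP/PS1. They were 102 of 2690 in Nlrp3KO and 202 of 1755 in Nlrp3KO APP/PS1. In sums over all microglia, such a shift and a change within cells cannot be told apart. Folr2 had 0.75 (interval 0.00 to 1.496, adjusted p = 0.665 by edgeR), and 0.39 without the Nlrp3KO pair at 9 months. Stab1 was lower in 4 of 4 pairs, by 0.19 on the log2 scale (interval -0.31 to -0.07, adjusted p = 0.43 by edgeR), and by 0.09 in HM alone (interval -0.20 to 0.01).

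Without Nlrp3, 5 of the 9 genes passed the filter in microglia (the same 4 and Ms4a7) and 0 were called, against 0.0242% of 12383 genes. By edgeR, and by DESeq2, which tested all 9 and called 0, 1 had an unadjusted p under 0.05, as did 574 of all genes by edgeR and 231 of 17533 by DESeq2. Pf4 had a log2 fold change of 0.78 ± 0.28 (SE; interval 0.14 to 1.41, adjusted p = 0.903 by edgeR), and in HM alone its estimate was -0.20 (interval -1.08 to 0.67). For the interaction in microglia 0 of 4 genes were called by edgeR, as were 0% of 12282 genes, and 0 had an unadjusted p under 0.05, against 353 of all genes.

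No difference in the share of BAM between genotypes was detected. BAM were 2.59% of the cells in the mean of the APP/PS1 libraries and 2.27% in their partners. The difference was 0.317 ± 0.876 percentage points (SD over 4 pairs), higher in 2 of 4 pairs, and between -0.0988 (without the Nlrp3KO pair at 9 months) and 0.532 (without the Nlrp3WT pair at 9 months) when a pair was left out (exact sign-flip permutation test, two-sided p = 0.75, smallest possible 0.125). Between Nlrp3KO and Nlrp3WT libraries it was -0.254 ± 0.711 percentage points (SD over 5 pairs), lower in 4 of 5 pairs, and between -0.53 (without the APP/PS1 pair at 9 months) and -0.0568 (without the pair of WT and Nlrp3KO at 9 months) when a pair was left out (exact sign-flip permutation test, two-sided p = 0.438, smallest possible 0.0625). With 4 and 5 pairs neither test could reach 0.05.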

How the data were processed

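The authors sorted CD45+ cells, sequenced them with the 10x 3' assay and processed reads with Cell Ranger against mm10, and deposited UMI counts per gene and cell without normalization. Per the deposited annotation, each cell had a cluster name, a doublet score computed by the authors and a batch number. Of the sample names there, 2 (6897 cells) matched no described sample, and their cells were not used. Groups came from the sample descriptions. Each library pooled 3 mice, so p-values do not measure the spread between mice. In the paired comparisons they rest on how the difference varied between pairs of libraries.

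Counts were summed per library and cell type and divided by the summed UMIs for CPM. After filterByExpr and TMM scaling, genes were compared by the quasi-likelihood test of edgeR 4.0.16 (R 4.3.3) with the pair as block and Benjamini-Hochberg adjustment over all genes tested. DESeq2 1.42.0 was an alternative. On simulated data of BAM, 94.0% (amyloid, 6755 genes) and 98.0% (Nlrp3, 7382 genes) of 200 genes moved 2 log2 units were called. That change is larger than the estimates of the 9 genes in all BAM, and the recovery of smaller changes was not measured. Doublets were kept in, and cells of a score over 0.5 were left out as an alternative. Thinned shares rest on 1500 UMIs of each cell, and no cell was shallower. Counting intervals are 95% exact, and a count of 0 was set against 3 counts. Intervals of fold changes are 95% intervals of the edgeR fit and are not exact. The 9 genes are named in every comparison, the wider list by counts and its 3 highest and lowest ratios, and 10 further genes by likeness of pattern. The genes, lists and rules were chosen with earlier results of these data known. Apoe, Lyz2, Colec12, Ppbp, Ms4a4a and H2-Aa outside these rules were named after their values were seen. Fits of single BAM clusters, the share of the Lyve1 cluster and the rule for lowered genes were added after seeing the data.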

Additional observations from a re-analysis of the deposited data

How the results depend on the processing

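For the 4 counts of the 9 genes called in BAM and in microglia, DESeq2, its size factors, no filter on low counts, additive covariates, the adjusted p alone, leaving out doublets, HM alone (microglia) and leaving out each pair each gave 0. Of the wider list, 1 gene was called, as lower, in BAM with amyloid without the Nlrp3WT pair at 3 months, and in BAM without Nlrp3 with no filter and without the APP/PS1 pair at 3 months. Of all genes, 10 of 6498, 27 of 14043 and 7 of 7279 were called in these 3 fits. In the BAM cluster alone with amyloid, 1 of 18 was called as lower, against 16 of 5928 of all genes, and 0 by DESeq2. Without doublets 2 of 18 were called as lower, against 20 of 5218 of all genes. Without the Nlrp3WT pair at 3 months it was 2 of 18 too, against 16 of 5167. Pf4 in all BAM with amyloid had an adjusted p of 0.0251 by edgeR without a filter, below the fold limit. In the BAM cluster alone, a fit added after seeing the data, the adjusted p alone gave 2 genes with amyloid. The single gene called there without Nlrp3 became 0 with DESeq2 and 0 without doublets, and between 0 and 2 when a pair was left out. When the annotation of all CD45+ cells set the states, the number of genes raised over HM was 1 in DAM and 1 in TM. The difference in the BAM share with amyloid lay between -0.0988 and 0.532 percentage points when a pair was left out, and turned below 0 without the Nlrp3KO pair at 9 months. The cause of these shifts was not tested.

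Estimates near 0 changed sign in BAM with amyloid, where Lyve1 was -0.02 with DESeq2, Mrc1 was -0.002 without a filter and Cbr2 was 0.085 without doublets. When a pair was left out, Mrc1 ranged from -0.069 to 0.112, Lyve1 from -0.352 to 0.377, Cbr2 from -0.258 to 0.123, F13a1 from -0.194 to 0.026 and Folr2 from -0.203 to 0.533, and Lyve1 in the BAM cluster alone from -0.983 to 0.147. In microglia without Nlrp3, Pf4 was -0.202 in HM alone. Libraries were paired by age and genotype in the amyloid and Nlrp3 fits, except with additive covariates. Depth limits the rare genes: 5 of the 9 did not pass the filter on low counts in microglia with amyloid, and without the filter edgeR tested all 9 and called 0.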
